A study of Homo sapiens with 8 samples.

Results

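The mitogen-activated protein kinase (MAPK) feedback genes described here were 10 of 19748 annotated protein-coding genes, comprising 7 dual-specificity phosphatase genes (DUSP1, DUSP2, DUSP4, DUSP5, DUSP6, DUSP8 and DUSP10), 2 Sprouty genes (SPRY2 and SPRY4) and the Sprouty-related gene SPRED2. They were selected on the RNA polymerase II (RNAPII) measurements of these same 4 libraries, namely promoter peak rank and width, summit position, and coverage of the gene body and of the region after the transcription end site (TES). Their values are therefore a description and carry no test. Each gene was measured on its longest GENCODE isoform in the GRCh37 (hg19) genome build.

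MAP kinases such as ERK, JNK and p38 are switched on by phosphorylation of a threonine and a tyrosine, and dual-specificity phosphatases remove both phosphates. Sprouty and SPRED proteins act further upstream and limit signalling from receptor tyrosine kinases through RAS and RAF. Many of these genes are themselves transcribed in response to ERK activity and give short-lived mRNAs, so that they form a negative feedback loop. CDK9, the kinase of P-TEFb, phosphorylates RNAPII and its partner factors to release polymerase paused just downstream of the transcription start site (TSS) into the gene body.

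The cells were MDA-MB-453, an established human breast cancer line of the luminal-like triple-negative subgroup, and all libraries came from this line. Cells received vehicle or 600 nM of the CDK9 inhibitor CDDD11-8 (labelled D11-8) for 4 h, with 2 biological replicates for each treatment. RNAPII was profiled by chromatin immunoprecipitation and sequencing (ChIP-seq) with the antibody CTD4H8, and the authors called peaks in each library separately. The 4 libraries are named vehicle 1, vehicle 2, CDDD11-8 1 and CDDD11-8 2, and values are given in that order.

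A call here means that both CDDD11-8 libraries lay above, or both below, both vehicle libraries. With 2 libraries against 2, the smallest two-sided p of an exact permutation test is 0.33, so no difference in a single gene could reach significance. The vehicle lists held 78263 and 57449 peaks and the CDDD11-8 lists 25867 and 21814, while between 10213 and 10662 genes had a promoter peak in each library. The highest pileup, the number of stacked fragments, in the members' promoter peaks ran from 30 to 410 fragments. The median fold enrichment of promoter peaks, which is pileup over local control, was higher in the CDDD11-8 libraries (25.3 and 16.9) than in the vehicle libraries (6.01 and 8.15), and fold enrichment was therefore compared between libraries only as a percentile among the genes with a promoter peak. The strongest summit of a peak was its summit of highest fold enrichment, which could differ from its summit of highest pileup. Of 8 markers of luminal androgen receptor breast cancer cells, all had a promoter peak in all 4 libraries, and of 7 markers of other cells 1 had one, in CDDD11-8 1 alone.

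The promoters of the members differed in sequence. Over 250 bases before to 50 bases after the TSS their GC content ran from 55.0% in DUSP10 to 78.3% in DUSP8, with a median of 70.8% against 62.2% over all 19748 promoters. DUSP1, DUSP5, SPRY4 and SPRED2, whose promoter peaks ranked higher by fold enrichment with CDDD11-8, and DUSP6, whose peak ranked lower, are shown from 250 bases to 1 base before the TSS, read from GRCh37 along the gene's strand. They lie at chr5:172198199-172198448 (DUSP1, minus strand), chr10:112257415-112257664 (DUSP5, plus), chr5:141704587-141704836 (SPRY4, minus), chr2:65659734-65659983 (SPRED2, minus) and chr12:89746279-89746528 (DUSP6, minus). Capitals mark the TATA box, the cyclic AMP response element (CRE), the E-box, the CCAAT box, the ETS core and the CArG box, the serum response factor element, on either strand.
DUSP1: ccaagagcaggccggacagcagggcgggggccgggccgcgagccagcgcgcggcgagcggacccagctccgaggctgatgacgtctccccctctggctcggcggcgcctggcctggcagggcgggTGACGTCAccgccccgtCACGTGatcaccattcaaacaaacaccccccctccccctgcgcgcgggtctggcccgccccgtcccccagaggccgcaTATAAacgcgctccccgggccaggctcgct
DUSP5: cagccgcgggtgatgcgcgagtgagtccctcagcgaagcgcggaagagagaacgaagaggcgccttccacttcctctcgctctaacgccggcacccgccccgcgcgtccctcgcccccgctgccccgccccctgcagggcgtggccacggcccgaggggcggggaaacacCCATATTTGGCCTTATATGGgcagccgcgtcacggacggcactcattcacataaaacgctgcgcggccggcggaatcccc
SPRY4: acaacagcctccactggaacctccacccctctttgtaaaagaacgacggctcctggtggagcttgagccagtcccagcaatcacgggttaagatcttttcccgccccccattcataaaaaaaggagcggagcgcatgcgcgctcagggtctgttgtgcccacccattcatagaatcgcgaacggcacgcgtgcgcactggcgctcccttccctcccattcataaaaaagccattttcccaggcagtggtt
SPRED2: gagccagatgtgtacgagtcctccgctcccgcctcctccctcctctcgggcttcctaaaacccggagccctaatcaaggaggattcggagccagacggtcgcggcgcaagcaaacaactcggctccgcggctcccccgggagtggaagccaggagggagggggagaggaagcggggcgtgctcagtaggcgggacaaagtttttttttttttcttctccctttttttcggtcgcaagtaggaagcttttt
DUSP6: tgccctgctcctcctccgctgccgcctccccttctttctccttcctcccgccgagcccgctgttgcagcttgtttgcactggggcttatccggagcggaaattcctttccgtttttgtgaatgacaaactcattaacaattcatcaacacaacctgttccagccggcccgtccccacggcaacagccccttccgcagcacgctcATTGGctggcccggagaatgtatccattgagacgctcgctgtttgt

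DUSP1 held a full CRE (TGACGTCA) from 125 to 118 bases before the TSS, an E-box (CACGTG) from 108 to 103 bases before it and a TATA box (TATAA) from 30 to 26 bases before it. DUSP5 held 2 adjoining CArG boxes between 80 and 61 bases before the TSS, and its TATAA match, on the other strand, fell inside the second of them. The CCAAT box of DUSP6, also on the other strand, lay from 46 to 42 bases before the TSS. No capital appears in SPRY4 or SPRED2, which says only that these letters are not in the windows shown. Over the full windows of all genes, on both strands, the share with a match was 17.4% for TATAA, 2.51% for TGACGTCA, 8.78% for CACGTG, 35.2% for CCAAT, 21.1% for CCGGAA (the ETS core) and 1.20% for the CArG box. The CRE was also found in DUSP8, the E-box in DUSP2, CCAAT in DUSP8 and DUSP10, and CCGGAA in DUSP4 and SPRY2. GGGCGG (the SP1 box) was present in 9 of 10 members, all but DUSP6, and in 57.1% of all promoters, while TGACG, which also lies within the CRE, was present in 6 of 10 and in 28.0%.

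A promoter peak was a peak overlapping the 300 bp on either side of the TSS. It was present in every library in 8 of 10 members, against 49.1% of all genes. DUSP8 had one with CDDD11-8 only, in both replicates, as did 1.13% of genes, SPRY2 lacked one in vehicle 2 only, and the opposite pattern, seen in 0.790% of genes, occurred in none of the 10. By fold enrichment, the promoter peak ranked higher with CDDD11-8 in 4 of the 8 members with values (DUSP1, DUSP5, SPRY4 and SPRED2) and lower in 1 (DUSP6), against 24.9% and 22.2% of 9701 genes. It was wider in 7 of 8 and narrower in none, against 64.4% and 9.44%. Since the members were selected on these libraries, nothing is read from the differences between these shares.

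Gene body coverage, the percentage of bases inside peaks over the stretch that starts 300 bp downstream of the TSS and ends 3 kb past the TES, was higher with CDDD11-8 in 3 of 10 members (DUSP8, DUSP10 and SPRY2) and lower in 4 (DUSP4, DUSP5, DUSP6 and SPRED2). The background was 13.7% and 21.1% of the 10141 genes of at least 1 kb lying at least 3 kb from other protein-coding genes, a class that held all 10 members. Measured from 2 kb after the TSS and ending at the TES, it was higher in DUSP1 and SPRY4 in place of DUSP8, DUSP10 and SPRY2, and lower in DUSP4, DUSP5 and SPRED2, against 6.37% and 18.9% of 9764 genes. Coverage of the 3 kb after the TES was lower in 5 (DUSP1, DUSP4, DUSP5, DUSP6 and SPRY4) and higher in none, against 19.2% and 1.45%. The median difference between treatment means over the members was 11.8 percentile points for rank (0.72 over all genes), 1419 bp for width (1214 bp), -1.06 percentage points for gene body coverage (0 over all genes) and -10.5 points after the TES (0).

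**Figure D1:**
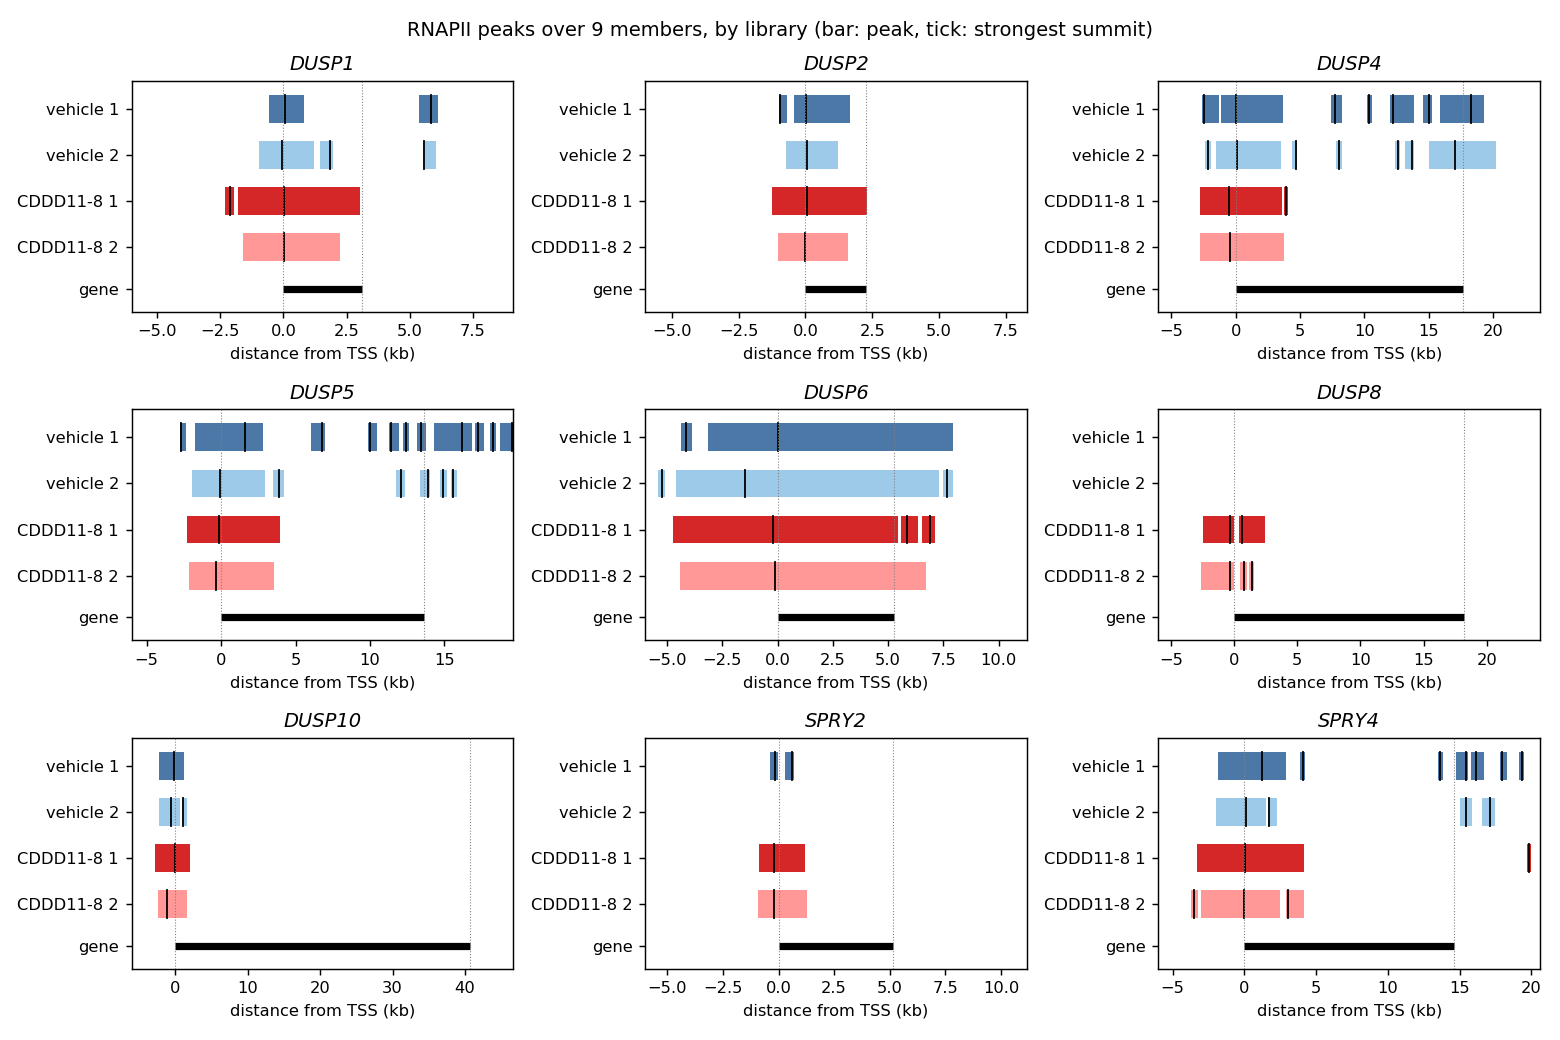
RNAPII peaks over 9 members by distance from the TSS in kb, with 1 row for each library. Bars are peaks, ticks the summit of highest fold enrichment in each peak, and the black line the gene from TSS to TES. Peaks in and after the distal parts of DUSP4, DUSP5 and SPRY4 appear in the vehicle rows, and DUSP8 has peaks in the CDDD11-8 rows only.

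DUSP1, a nuclear phosphatase of ERK, JNK and p38 and an immediate early gene (chr5:172195099-172198198, minus strand, 4 exons), had the largest difference in promoter rank among the members. Its percentile by fold enrichment was 21.3 and 18.6 with vehicle and 73.5 and 84.6 with CDDD11-8, a mean of 19.97 ± 1.92 against 79.0 ± 7.86 (SD, n = 2). The groups did not overlap, and 0.485% of the 9701 genes had a larger difference. Ranked by pileup, the height of fragments at the peak without division by the control, the percentile of DUSP1 was 67.8, 63.0, 62.1 and 59.5, which turns the direction. The control pileup implied by the fold enrichment at its strongest summit was 2.56 and 2.19 times the promoter median with vehicle, and 0.945 and 0.733 times the promoter median with CDDD11-8. The part of the control in the rank of DUSP1 was not tested beyond these values.

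The promoter peak of DUSP1 was 1384, 2167, 4840 and 3818 bp wide. It reached 804 and 1211 bp after the TSS with vehicle and 3052 and 2237 bp with CDDD11-8, which is most of this short gene. Separate peaks covered 24.1% and 17.8% of the 3 kb after the TES with vehicle, and none of it with CDDD11-8. Gene body coverage, which joins these parts, was 21.2%, 33.8%, 47.5% and 33.4% and overlapped between treatments. With only summits of -log10 q, the caller's adjusted significance, of at least 5 it was 21.2%, 15.7%, 47.5% and 33.4%, higher in both CDDD11-8 libraries, as in 16.2% of genes.

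DUSP5, a nuclear phosphatase specific for ERK (chr10:112257665-112271291, plus strand, 4 exons), also ranked higher by fold enrichment, with percentiles of 49.0, 65.8, 91.9 and 67.6. The CDDD11-8 values lay above the vehicle values, but vehicle 2 and CDDD11-8 2 were close to each other. Ranked by pileup the order turned, at 64.6, 65.2, 57.1 and 50.2. In vehicle 1 its strongest summit by fold enrichment lay 1602 bp after the TSS, at a pileup of 54 where the peak's highest was 146. In the other libraries it lay 92, 149 and 316 bp before the TSS. Vehicle 1 had no DUSP5 summit within 300 bp of the TSS, so with only such summits counted DUSP5 had no comparison. Of the other 7 members 2 (DUSP1 and SPRY4) then ranked higher and 1 (DUSP4) lower, against 24.5% and 21.5% of 7568 genes.

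Distal RNAPII peaks over DUSP5 were called with vehicle alone. Beyond the first 10 kb of the gene, peaks covered 54.1% and 22.7% with vehicle, and none with CDDD11-8. Over the 3 kb after the TES the values were 82.5% and 43.97%, and again none with CDDD11-8. The promoter peak itself changed less in extent, from 4514 and 4848 bp to 6237 and 5725 bp. Gene body coverage was 48.9%, 33.5%, 22.3% and 19.99%, lower in both CDDD11-8 libraries. With only summits of -log10 q of at least 5 the values were 35.5%, 16.0%, 22.3% and 19.99% and overlapped.

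DUSP4, a nuclear phosphatase of ERK and JNK (17.6 kb long, minus strand, 4 exons), also had no distal peaks with CDDD11-8, with a promoter rank that overlapped between treatments. Its percentile was 66.2, 71.1, 61.1 and 78.8. Gene body coverage was 52.4% and 51.0% with vehicle and 17.5% and 17.1% with CDDD11-8, a mean of 51.7 ± 0.999 against 17.3 ± 0.334 (SD, n = 2). With equal numbers of peaks in each library the difference was -22.6 percentage points in place of -34.4. Coverage beyond 10 kb was 62.1% and 49.8% with vehicle, and coverage of the 3 kb after the TES was 55.7% and 86.6%, and no base of either window lay in a peak with CDDD11-8. The window from 2 to 5 kb after the TSS was covered to 55.9%, 62.5%, 62.1% and 58.9%, with no order between treatments. Upstream of the TSS the promoter peak reached 1114 and 1557 bp with vehicle and 2804 and 2776 bp with CDDD11-8. In both vehicle libraries a separate peak already lay just upstream of the promoter peak. With peaks within 1 kb joined, the widths were 6300, 7112, 6882 and 6544 bp and overlapped between treatments. The strongest summit moved from 40 and 81 bp after the TSS to 484 and 473 bp before it. An unnamed long noncoding RNA gene starts on the other strand 608 bp before the TSS, inside the promoter peak in every library. Polymerase at its start and at that of DUSP4 cannot be told apart.

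DUSP2, a nuclear phosphatase of ERK and p38 best known from immune cells (chr2:96808908-96811179, minus strand, 4 exons), was called for width, which was greater with CDDD11-8, and for its rank by pileup, which was lower. Its percentile varied more between replicates than between treatments, at 22.0, 61.6, 44.5 and 24.3, and by pileup it was 46.4, 48.7, 31.0 and 25.7. The promoter peak was 2092, 1950, 3553 and 2629 bp wide. Gene body coverage overlapped, at 27.2%, 18.2%, 40.1% and 26.0%, though it was higher with CDDD11-8 between libraries of the same number. The labels do not give these as pairs, and the share of all genes meeting this was not computed. No direction is therefore read from such comparisons, here or below. After the TES only CDDD11-8 1 had any coverage, at 0.733%.

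DUSP6, the cytoplasmic phosphatase specific for ERK (chr12:89741012-89746278, minus strand, 3 exons), had the highest pileup of the members in every library. A single peak of 11071, 11912, 10183 and 11134 bp spanned the whole gene in every library, and the highest pileup in it held 240, 160, 410 and 339 fragments. The percentile by fold enrichment was 87.5 and 90.1 with vehicle and 86.0 and 73.4 with CDDD11-8, lower in both, with vehicle 1 and CDDD11-8 1 close to each other. By pileup it was 91.7, 90.9, 92.2 and 93.1, in the opposite direction. The widths overlapped between treatments, and the peak was narrower with CDDD11-8 between libraries of the same number. The tail of the peak beyond the gene was shorter with CDDD11-8. Coverage of the 3 kb after the TES was 88.7%, 82.7%, 49.6% and 47.8%, a mean of 85.7 ± 4.20 against 48.7 ± 1.27 (SD, n = 2), and gene body coverage was 95.7%, 93.5%, 81.0% and 80.4%.

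Among the phosphatases that act mainly on JNK and p38, DUSP8 (chr11:1575281-1593501, minus strand, 7 exons) had no peak over the promoter or gene body with vehicle. With CDDD11-8 it had a promoter peak of 2516 and 2593 bp at percentiles of 16.5 and 15.0, among the weaker promoter peaks of those libraries. The peak lay almost wholly before the TSS, from 2503 bp before to 12 bp after it in CDDD11-8 1 and from 2594 to 2 bp before it in CDDD11-8 2, and the highest pileup held 75 and 54 fragments. Separate peaks followed further into the gene, and gene body coverage was 0%, 0%, 9.76% and 3.99%. The start of the antisense RNA gene KRTAP5-AS1, 918 bp after the TSS of DUSP8, lay in a peak in both CDDD11-8 libraries, and ChIP-seq carries no strand, so the transcripts cannot be told apart.

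DUSP10, the other phosphatase of JNK and p38 (chr1:221874766-221915431, minus strand, 4 exons), had RNAPII peaks only around its promoter. No base beyond 5 kb after the TSS lay in a peak in any library. Its promoter peak was 3414, 2906, 4867 and 4013 bp wide and reached 1163, 698, 2077 and 1671 bp after the TSS. Gene body coverage was 1.99%, 2.59%, 4.10% and 3.16%, higher in both CDDD11-8 libraries by 1.34 percentage points on average. The percentile by fold enrichment overlapped, at 36.7, 32.8, 33.8 and 23.5, and was lower with CDDD11-8 between libraries of the same number. By pileup the percentile was 70.5 and 68.0 with vehicle and 42.7 and 39.8 with CDDD11-8.

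**Figure D2:**
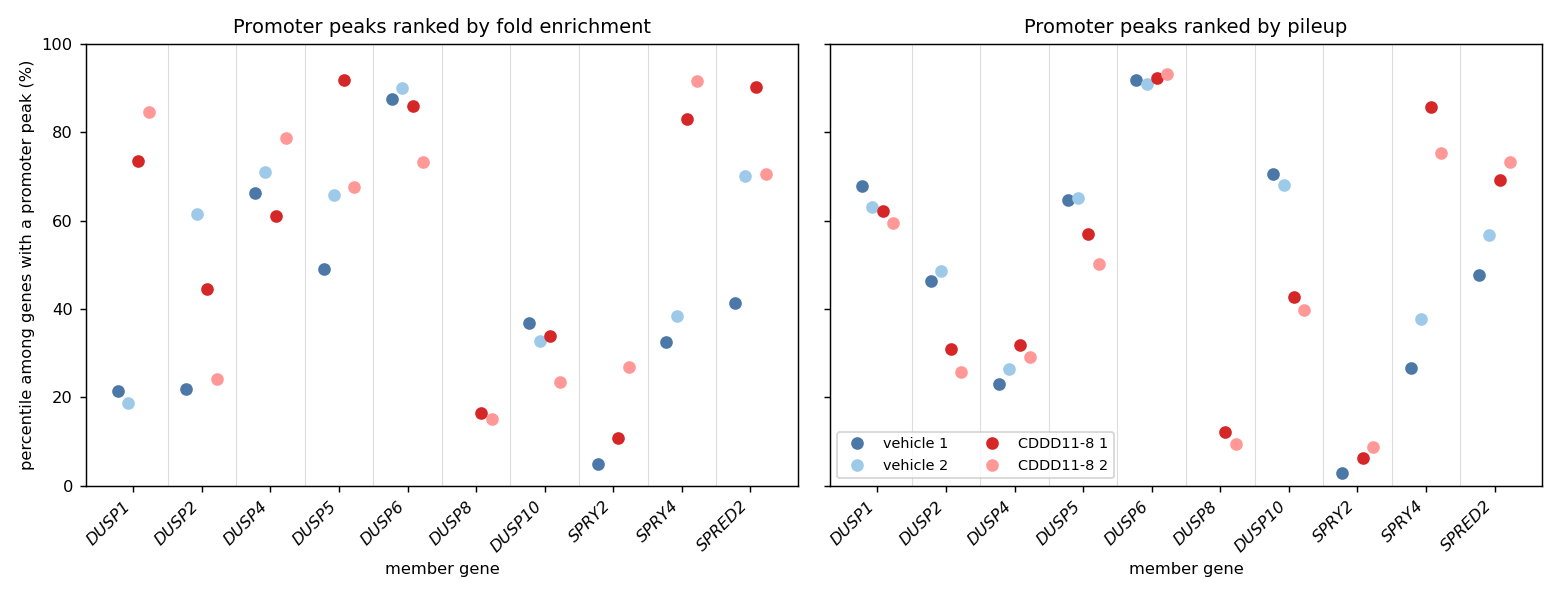
Percentile of each member's promoter peak among all genes with a promoter peak in that library, ranked by fold enrichment (left) and by pileup (right), with 1 point for each library. SPRY4 and SPRED2 are higher with CDDD11-8 on both scales, and DUSP1 and DUSP5 only by fold enrichment.

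The Sprouty genes encode cytoplasmic and membrane-associated inhibitors of receptor tyrosine kinase signalling. For SPRY4 (chr5:141689995-141704586, minus strand, 2 exons) the promoter percentile was 32.5 and 38.4 with vehicle and 83.1 and 91.6 with CDDD11-8, a mean of 35.4 ± 4.18 against 87.3 ± 6.04 (SD, n = 2). The groups lay far apart, and 1.32% of the 9701 genes had a larger difference. The direction was kept by pileup, at 26.7, 37.7, 85.7 and 75.2. The highest pileup held 83 and 64 fragments with vehicle and 368 and 251 with CDDD11-8. Part of this difference was shared by other promoters. In the unit of the lists, the median pileup at the strongest summit by fold enrichment of promoter peaks was 97, 73, 169 and 165. For SPRY4 it was 52, 64, 273 and 241. In vehicle 1 this SPRY4 summit was not the one of highest pileup, at 52 against 83.

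The start of SPRY4-AS1, on the other strand 188 bp before the TSS of SPRY4, lay inside the same promoter peak in all 4 libraries, so polymerase at the 2 starts cannot be told apart. The strongest summit was 1234, 87 and 49 bp after the TSS in vehicle 1, vehicle 2 and CDDD11-8 1, and 11 bp before it in CDDD11-8 2. Toward the 3' end the libraries moved the other way. The 3 kb after the TES were covered to 57.3% and 59.2% with vehicle and not at all with CDDD11-8. Gene body coverage overlapped, at 28.4%, 20.6%, 22.3% and 19.8%, and was lower with CDDD11-8 between libraries of the same number. With equal numbers of peaks in each library the values were 19.9%, 6.88%, 22.3% and 19.8%. They again overlapped, but were then higher with CDDD11-8 between libraries of the same number. From 2 to 5 kb after the TSS coverage was 40.5% and 8.80% with vehicle and 72.0% and 57.2% with CDDD11-8.

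SPRY2 (chr13:80910111-80915261, minus strand, 2 exons) had weak promoter peaks. Its percentile was 4.96 in vehicle 1 and 10.8 and 26.9 with CDDD11-8, and vehicle 2 had no peak. Vehicle 1 had 2 separate peaks over the promoter, the ranked one 342 bp wide with a height of 30 fragments and another 414 bp wide with 16 fragments, and the CDDD11-8 peaks were 2076 and 2193 bp wide with 45 and 51 fragments. Gene body coverage was 5.18%, 0%, 11.4% and 12.3%, higher in both CDDD11-8 libraries, and all of it lay within 2 kb of the TSS.

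SPRED2, which holds back RAF activation by RAS together with neurofibromin, was the longest member (chr2:65537985-65659733, minus strand, 6 exons, 121.7 kb). Gene body coverage was 82.8% and 74.7% with vehicle and 25.5% and 20.8% with CDDD11-8, a mean of 78.7 ± 5.74 against 23.2 ± 3.31 (SD, n = 2), and 1.91% of the 10141 genes had a larger decrease. The treatments did not overlap. With equal numbers of peaks in each library the values were 63.9%, 51.2%, 21.8% and 20.8%, and the difference was -36.3 percentage points in place of -55.6. At the promoter the percentile was 41.4, 70.1, 90.3 and 70.5, with vehicle 2 and CDDD11-8 2 nearly equal, and by pileup it was 47.7, 56.8, 69.3 and 73.2. The rank by fold enrichment was not called when only a summit within 300 bp of the TSS counted. The promoter peak widened from 4691 and 4081 bp to 10795 and 11094 bp, the largest gain among the members, and 2.59% of genes gained more. Much of the gain was upstream, where the edge went from 1370 and 720 bp to 5919 and 5228 bp before the TSS. The start of LINC02934, on the other strand 4112 bp upstream, lay in a peak of its own with vehicle and in the SPRED2 promoter peak with CDDD11-8.

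Along SPRED2 the loss was uneven. Between 10 and 50 kb downstream of the TSS, peaks covered 73.1% and 59.4% with vehicle and 5.69% and 4.90% with CDDD11-8. Between 50 and 70 kb, a stretch with 3 of its 6 annotated internal starts, coverage was 85.4% and 79.2% against 30.6% and 37.2%. The peaks at the starts 65847 and 65949 bp downstream had a fold enrichment of 6.73, 8.44, 4.98 and 6.27, so a peak was found there in each library. The same held at the start 54849 bp downstream, with 6.125, 5.847, 3.777 and 4.123. Between 70 and 100 kb, the stretch with the other 3 starts, the values were 88.2% and 77.4% against 10.7% and 2.55%. Peaks at the starts 87800 and 87813 bp downstream were found with vehicle only. At the start 97826 bp downstream a peak was found in all libraries but CDDD11-8 2. Between 100 and 120 kb, next to the TES, coverage was 98.6% and 94.0% against 51.2% and 28.8%. These boundaries were drawn after the values were seen.

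Far beyond its 3' end SPRED2 had peaks where the other members had none. The first 3 kb after the TES were covered completely in all 4 libraries. From 10 to 20 kb after the TES, coverage was 74.2% and 52.2% with vehicle and 98.1% and 97.4% with CDDD11-8, and from 20 to 30 kb it was 27.8% and 9.09% with vehicle and 96.3% and 87.4% with CDDD11-8. Of 6378 genes with at least 30 kb to the next gene downstream, 2.38% were higher with CDDD11-8 in the first window and 2.52% in the second. A larger difference than that of SPRED2 was seen in 35 genes in the first window and in 7 in the second. These windows too were chosen after the values were seen. The other 8 members in this class had no peak in either window in any library. ACTR2, an actin-related gene, runs toward SPRED2 from the other side and ends 39.6 kb away, and the 3 kb after its own TES were covered to 69.5%, 81.9%, 86.9% and 56.2%. Which gene the polymerase between them transcribed cannot be told apart.

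**Figure D3:**
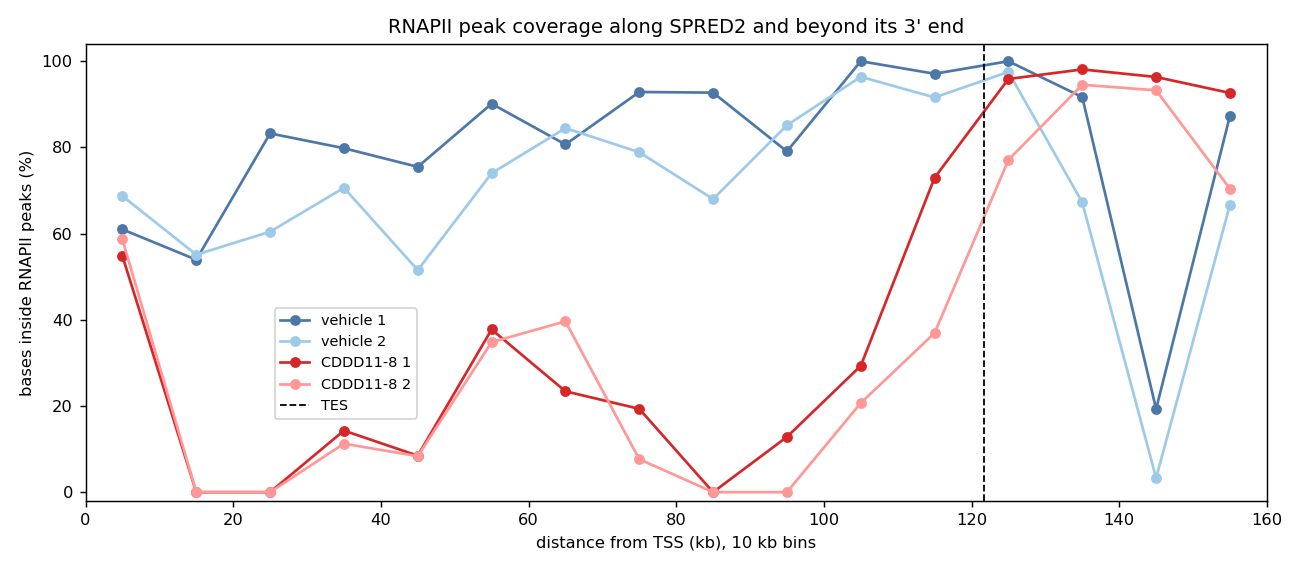
Percentage of bases inside RNAPII peaks in 10 kb bins along SPRED2 by distance from the TSS in kb, with 1 line for each library and the TES dashed. The CDDD11-8 lines fall to 0% from 10 to 30 kb and, in the bin from 140 to 150 kb, which lies beyond the TES, stand at 96.3% and 93.2% where the vehicle lines are at 19.3% and 3.30%.

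Of the 6 members covered after the TES in both vehicle libraries, 4 (DUSP1, DUSP4, DUSP5 and SPRY4) had no coverage there with CDDD11-8, DUSP6 kept part and SPRED2 all. Choosing genes by their vehicle coverage favours a decrease, and of the 2397 genes chosen in this way 81.2% were lower with CDDD11-8. The calls of DUSP1, DUSP5 and SPRY4 depended on weaker peaks in vehicle 2. With only summits of -log10 q of at least 5, their coverage after the TES was 24.1%, 77.2% and 57.3% in vehicle 1 and 0% in vehicle 2. At that cutoff 2 members (DUSP4 and DUSP6) were lower after the TES, against 14.5% of 10141 genes. The same 2 were lower with equal numbers of peaks in each library, against 10.8%. In the gene body 3 (DUSP4, DUSP6 and SPRED2) were lower and 4 (DUSP1, DUSP8, DUSP10 and SPRY2) higher under either setting, against 16.3% lower and 16.2% higher with the first and 11.7% lower and 21.9% higher with the second.

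From 0.3 to 2 kb after the TSS, DUSP4, DUSP5, DUSP6 and SPRED2 were fully covered in every library, so this window cannot show a difference for them. DUSP1 was covered there to 29.7% and 84.1% with vehicle and fully with CDDD11-8, and DUSP10 to 50.8%, 66.0%, 100% and 80.7%. DUSP2 overlapped, at 79.5%, 53.3%, 100% and 76.0%. DUSP8 was covered to 0%, 0%, 93.4% and 49.1%, SPRY2 to 23.9%, 0%, 52.7% and 56.7%, and SPRY4 to 100%, 89.2%, 100% and 100%. The share of all genes was not computed for this window, so no contrast with other genes is drawn from it.

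Among isolated genes of like length whose promoter had a peak in all 4 libraries, these changes were frequent. In the class from 6 to 20 kb, with DUSP4, DUSP5 and SPRY4, 49.4% of 864 genes had lower gene body coverage and 47.5% lower coverage after the TES. For genes under 6 kb, the class of DUSP1, DUSP2 and DUSP6, the shares were 38.7% and 39.0% of 318 genes. For genes over 20 kb, with DUSP10 and SPRED2, they were 44.2% and 40.6% of 2828. Gene body coverage was higher, as in DUSP10, in 26.5% of these 2828 genes. DUSP8 and SPRY2 lacked a promoter peak in some library and were in none of these classes. The median gene body coverage of this last class was 5.48% and 3.78% with vehicle, so the 82.8% and 74.7% over SPRED2 stood far above it.

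**Figure D4:**
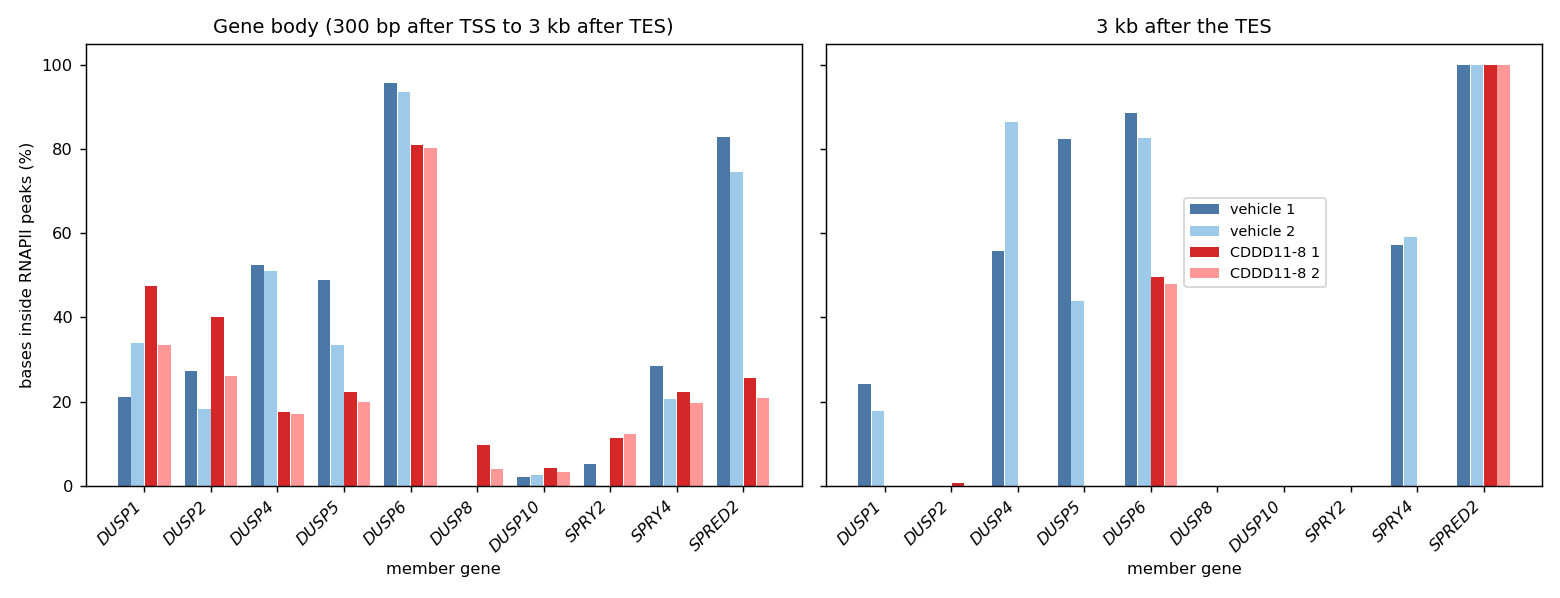
Percentage of bases inside RNAPII peaks in the gene body (left) and in the 3 kb after the TES (right) for each member, with 1 bar for each library. After the TES the CDDD11-8 bars of DUSP1, DUSP4, DUSP5 and SPRY4 are at 0, and in the gene body those of DUSP4, DUSP5, DUSP6 and SPRED2 are below the vehicle bars.

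Over all genes whose promoter had a peak in all 4 libraries, the median edge lay 1339, 1360, 2242 and 1985 bp before the TSS and 1551, 1620, 2520 and 2262 bp after it, farther out with CDDD11-8 on both sides. Among the members, the edge after the TSS overlapped between treatments in DUSP4 (3676, 3493, 3569 and 3767 bp) and drew in for DUSP6 (7926, 7296, 5426 and 6701 bp). Relative to the library's median promoter peak width, DUSP1 and SPRED2 were wider with CDDD11-8 and DUSP4, DUSP5 and DUSP6 narrower, against 26.1% and 36.8% of 9701 genes. When peaks within 1 kb of each other were joined, 4 members (DUSP1, DUSP10, SPRY4 and SPRED2) remained wider and DUSP6 was narrower, against 46.9% and 19.3% of 9705 genes. By pileup, the promoter rank was higher with CDDD11-8 in DUSP4, DUSP6, SPRY4 and SPRED2 and lower in DUSP1, DUSP2, DUSP5 and DUSP10, against 40.1% and 34.3% of 9701 genes. By -log10 q it was higher in DUSP1, SPRY4 and SPRED2 and lower in DUSP4, DUSP6 and DUSP10, against 32.5% and 30.1%.

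The relatives outside the set gave a mixed picture. For genes outside the set, each called difference has the smallest p the design allows, 0.33 by the exact two-sided permutation test. Of the other MAP kinase phosphatases, DUSP7 had a gene body coverage of 19.4%, 38.8%, 39.0% and 19.0% and DUSP9 had no peak, while DUSP16, which overlaps or adjoins another gene, was covered to 25.2%, 13.3%, 3.80% and 4.05%. SPRY1 was covered to 100%, 97.8%, 56.9% and 52.8% in its body and to 100%, 92.8%, 0% and 0% after the TES, the largest called decrease in its list. SPRED1 was covered to 25.6%, 21.1%, 4.09% and 3.56% in its body, and after the TES to 87.1% and 88.9% with vehicle and not at all with CDDD11-8, unlike SPRED2. SPRY3 and SPRED3 lie within 3 kb of other genes, and their body values of 0.390%, 0.626%, 0.954% and 0.776%, and of 11.1%, 7.20%, 14.3% and 7.33%, were not called.

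Among 8 ERK target genes, 2 of the 5 that could be called had higher and 2 had lower gene body coverage, against 13.7% and 21.1% of all 10141 genes, the background for each of the lists that follow. PHLDA1, a pleckstrin homology-like gene induced by growth factors, went from 0% and 1.41% to 13.1% and 8.00%, and ERRFI1, the feedback inhibitor of EGFR, from 76.4% and 80.8% to 58.1% and 52.0%. In ERRFI1 the 3 kb after the TES were covered to 70.7%, 27.3%, 100% and 92.8%, higher with CDDD11-8. Of 21 genes of the cascade from RAS to ERK, 6 could be called and 3 were lower, led by the adaptor GRB2 at 99.6%, 96.3%, 20.9% and 13.4%. Of 11 genes of the JNK and p38 branches, 3 of 7 were higher, led by the p38 kinase kinase MAP2K3 at 3.47%, 7.21%, 15.0% and 8.18%, and 2 were lower, led by the p38 kinase MAPK13 at 61.0%, 35.0%, 12.4% and 9.67%. Of 11 atypical dual-specificity phosphatases, 3 of 6 were higher, led by DUSP11 at 6.40%, 5.04%, 8.30% and 6.62%, and none was lower.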

How the data were processed

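Libraries came from MDA-MB-453 cells treated with vehicle or 600 nM CDDD11-8 for 4 h, sequenced by the authors to at least 60 M paired-end reads of 150 bp. The authors aligned reads to GRCh37/hg19 with Bowtie 2 and called peaks with MACS2 in each library against its own input, and the submitters' processing notes also name DiffBind and deepTools, with no versions. The deposited lists give, for each summit, the region's coordinates, the pileup (signal of stacked fragments), the fold enrichment (ratio of pileup to local control) and the -log10 q-value. The 4 input libraries were not analysed here. Every listed summit had a -log10 q of at least 2.

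Regions were joined to the longest protein-coding isoform of each gene in GENCODE release 44 lifted to GRCh37, using Python 3.11.15, numpy 2.4.6 and pandas 2.3.3, and measures were tested on simulated peaks. Percentiles rank the highest fold enrichment of each promoter peak within its library. Pileup was a multiple of 1, 1, 0.743 and 0.962 in the 4 libraries (within 0.05), which gave whole fragments. Fragment numbers carry counting error and also vary between libraries. The median pileup at the strongest summit of promoter peaks was 97 in vehicle 1 and 73 in vehicle 2. Members, windows and lists were chosen with earlier results of these data known. Named genes were all members, DUSP7, DUSP9, DUSP16, SPRY1, SPRY3, SPRED1, SPRED3, and in each list the genes with the largest called rise and fall of gene body coverage. ACTR2 was named after its values were seen. Replicates were biological, from separate passages.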

Additional observations from a re-analysis of the deposited data

How the results depend on the processing

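The numbers of members called were recomputed under other settings, giving 88 values, of which 71 stayed within 1.5 times the reported number. With -log10 q of at least 5, and with equal numbers of peaks, the members lower after the TES were 2 in place of 5. By pileup 4 members ranked lower and by -log10 q 3, in place of 1, and with a summit within the promoter 2 of 7 ranked higher, in place of 4 of 8. With peaks within 1 kb joined, 4 were wider and 1 narrower, in place of 7 and 0. Leaving out 1 library at a time gave 2 members ranking lower in each case, 0 to 1 narrower, 3 to 5 with higher gene body coverage and 0 to 1 higher after the TES. Without vehicle 1, DUSP6 was narrower. Without CDDD11-8 2, DUSP6 was narrower, DUSP1 and DUSP2 had higher gene body coverage and DUSP2 was higher after the TES. With a replicate block, 2 members ranked lower (DUSP6 and DUSP10) and 1 was narrower (DUSP6). DUSP2 was added to the members higher in gene body coverage and SPRY4 to those lower, and no other count moved by over 1.5 times. The share of all genes called was not computed with a library left out or with a replicate block. Both rules are easier to meet than the main call, so nothing is read from these counts. The replicates were consecutive passages, but whether same-numbered libraries shared one is not given in the labels, and the correlations of their replicate differences across genes were -0.06 to -0.02.

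Chosen after seeing the data, ranks among genes whose promoter had a peak in all 4 libraries gave 2 members ranking lower. The share of all genes called was not computed for these ranks. Widths over the library's median, also chosen after seeing the data, gave 2 wider and 3 narrower. By pileup the difference in percentile was -4.59 for DUSP1, -11.2 for DUSP5 and 1.35 for DUSP6, the reverse of that by fold enrichment. Over the median width the difference was -0.20 for DUSP4, -0.23 for DUSP5 and -0.0702 for DUSP10. The cause was not tested. With 2 libraries a treatment the exact permutation test cannot give a p below 0.33, and the peak lists give coverage by called peaks, so RNAPII below the calling threshold is not counted.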

Other observations

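Several members share their promoter peak with the start of another annotated transcript. The start of DUSP5-DT, on the other strand 1317 bp before the TSS of DUSP5, lay inside the DUSP5 promoter peak in all 4 libraries. DUSP6 had unnamed long noncoding RNA genes starting on the other strand 1297 bp before and 1486 bp after its TSS, both inside its peak in all 4 libraries. An unnamed long noncoding RNA gene starts 608 bp before DUSP4 on the other strand, inside the promoter peak in all 4 libraries. A start 1311 bp before DUSP1 on the same strand lay in a peak with CDDD11-8 only, where the DUSP1 promoter peak had widened over it.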
